A study of Mus musculus with 8 samples.

Results

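Wnt/beta-catenin signalling was followed through 10 genes in mouse embryonic stem cells (mESCs) and mesoderm progenitors. The genes were 6 well-known targets and feedback regulators of the pathway (Axin2, Sp5, Nkd1, Rnf43, Notum and Dkk1) and the 4 genes of the TCF/LEF family of transcription factors (Lef1, Tcf7, Tcf7l1 and Tcf7l2). They are listed by name, with no threshold on their values, and were found through the symbols that the GENCODE annotation gives to 10 of the 37620 Ensembl gene identifiers. All 10 passed the filter on low counts. They and the pathway lists used below were chosen with earlier results of these data known. This limits each count of members or list genes that is set beside a share of all genes.

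The libraries held RNA from cells in 5 states. All mESC cultures received the inhibitor pair called 2i, that is CHIR99021 against the kinase GSK3 and PD0325901 against the kinase MEK. The methods describe R1 cells as kept in serum without feeder cells. They do not describe how the line with a CDX2-GFP reporter was kept. The 2i and 2iJ libraries (1 each, day 5) came from the R1 line, and 2iJ adds an inhibitor of JAK. In 2iJ+B-A, BMP4 and ALK5 inhibitor II, which blocks receptors of the Activin/Nodal pathway, were added to 2iJ, and R1 cells were collected on days 2, 5 and 11 (1 library each). Another library held cells sorted as GFP-positive on day 2 of 2iJ+B-A from a line with a CDX2-GFP reporter, so that the line and the sort both set it apart from the R1 libraries. The 2 libraries of mesoderm progenitors were made from embryoid bodies of R1 cells, which the methods describe as re-aggregated with BMP4, Activin A and Wnt3a. The day 3 library preceded and the day 4 library followed a day in IWP-2, an inhibitor of Wnt secretion. No mESC library lacked the GSK3 inhibitor, so its effect could not be measured here. The day 4 library differs from day 3 in both time and inhibitor, which cannot be told apart.

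In the canonical pathway a Wnt ligand binds a Frizzled receptor and an LRP co-receptor, and the complex of Axin, APC, GSK3 and CK1 that marks beta-catenin for destruction is held back. Beta-catenin then enters the nucleus and binds TCF/LEF proteins on DNA, and inhibition of GSK3 stabilises it without a ligand. Tcf7l1, known in the stem cell literature as Tcf3, acts mostly as a repressor in mESCs and limits the pluripotency genes, whereas Tcf7 and Lef1 are more often activators. In the embryo, Wnt signals are needed for the primitive streak and the mesoderm that leaves it.

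TCF/LEF proteins bind the sequence CTTTGAT. It was searched on both strands in windows from 250 bases before to 50 bases after the annotated start of each gene, where ATCAAAG is the same site on the other strand. The windows of 4 of the 10 genes held it, against 3.47% of 22337 windows of protein-coding genes. The shorter core CTTTG was found in 8 of the 10 windows and in 52.6% of all windows, and every match to CTTTGAT contains it. A match is a description of letters and not of binding, which was not measured here. The 250 bases upstream of the start are shown for the 4 genes with the longer match because they allow the differences in level between these genes to be set beside their promoters. Bases are given 5′ to 3′ on the strand of the gene, with the match in capitals. In NCBIM37 the intervals are chr2:70312730-70312979 on the plus strand (Sp5), chr8:91044993-91045242 on the plus strand (Nkd1), chr11:120522490-120522739 on the minus strand (Notum) and chr11:52096682-52096931 on the minus strand (Tcf7).
Sp5: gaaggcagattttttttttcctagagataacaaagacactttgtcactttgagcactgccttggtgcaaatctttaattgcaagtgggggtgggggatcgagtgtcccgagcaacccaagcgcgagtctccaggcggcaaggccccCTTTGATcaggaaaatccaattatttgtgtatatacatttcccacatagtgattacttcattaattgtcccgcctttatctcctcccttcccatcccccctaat
Nkd1: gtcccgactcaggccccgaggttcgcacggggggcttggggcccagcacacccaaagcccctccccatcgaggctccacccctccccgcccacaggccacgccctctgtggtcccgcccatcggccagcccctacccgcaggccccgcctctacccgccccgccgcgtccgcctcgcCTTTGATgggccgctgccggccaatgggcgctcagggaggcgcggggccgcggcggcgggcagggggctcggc
Notum: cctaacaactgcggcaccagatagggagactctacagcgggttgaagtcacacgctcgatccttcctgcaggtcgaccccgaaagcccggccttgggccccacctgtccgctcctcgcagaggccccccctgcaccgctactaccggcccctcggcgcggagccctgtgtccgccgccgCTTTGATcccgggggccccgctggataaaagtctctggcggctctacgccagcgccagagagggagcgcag
Tcf7: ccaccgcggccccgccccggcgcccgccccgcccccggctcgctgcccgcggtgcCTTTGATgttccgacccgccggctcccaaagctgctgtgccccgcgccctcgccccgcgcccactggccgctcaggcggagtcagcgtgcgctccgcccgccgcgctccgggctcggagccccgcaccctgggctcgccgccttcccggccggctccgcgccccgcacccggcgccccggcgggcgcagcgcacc
The first base of the match lay 104 bases before the start of Sp5, 73 before that of Nkd1, 71 before that of Notum and 195 before that of Tcf7. Of these 4 genes, Sp5, Nkd1 and Tcf7 had their highest level in mesoderm day 3 and Notum had its highest in 2i. Of the genes without the longer match, Axin2, Dkk1 and Lef1 also had their highest level in mesoderm day 3. Rnf43 and Tcf7l2 had theirs in the sorted cells and Tcf7l1 on day 5 of 2iJ+B-A. A link between the match and the levels was not tested.

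Gene counts were 19810855 in the sorted library and 24532587 to 31453888 in the others. Levels are given as counts-per-million (CPM), each gene's share of all gene counts of its library, and 3 counts, taken as the detection floor, correspond to 0.095 to 0.151 CPM. The half-width of the 95% Wilson interval was 2.52% to 13.4% of the value for the 52 member values of 10 CPM or more, and 11.9% to 64.9% for the 28 lower values. These intervals cover counting error only. The sorted library stood apart, with 29.7% of read pairs unmapped against 2.17% to 3.85% elsewhere, and all 4 fibroblast markers were highest there (summed 87.5 CPM, against 6.54 to 15.3). Primitive streak and mesoderm markers summed to 1809 and 1141 CPM in mesoderm days 3 and 4 and to 27.1 to 131 CPM in the mESC libraries. Pluripotency markers summed to 982 and 194 CPM in the mesoderm libraries and to 2504 to 4484 CPM in the others. In bulk RNA, fewer expressing cells and less RNA per cell cannot be told apart. These markers move with the groups compared, and their part in the results was not tested.

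**Figure D1:**
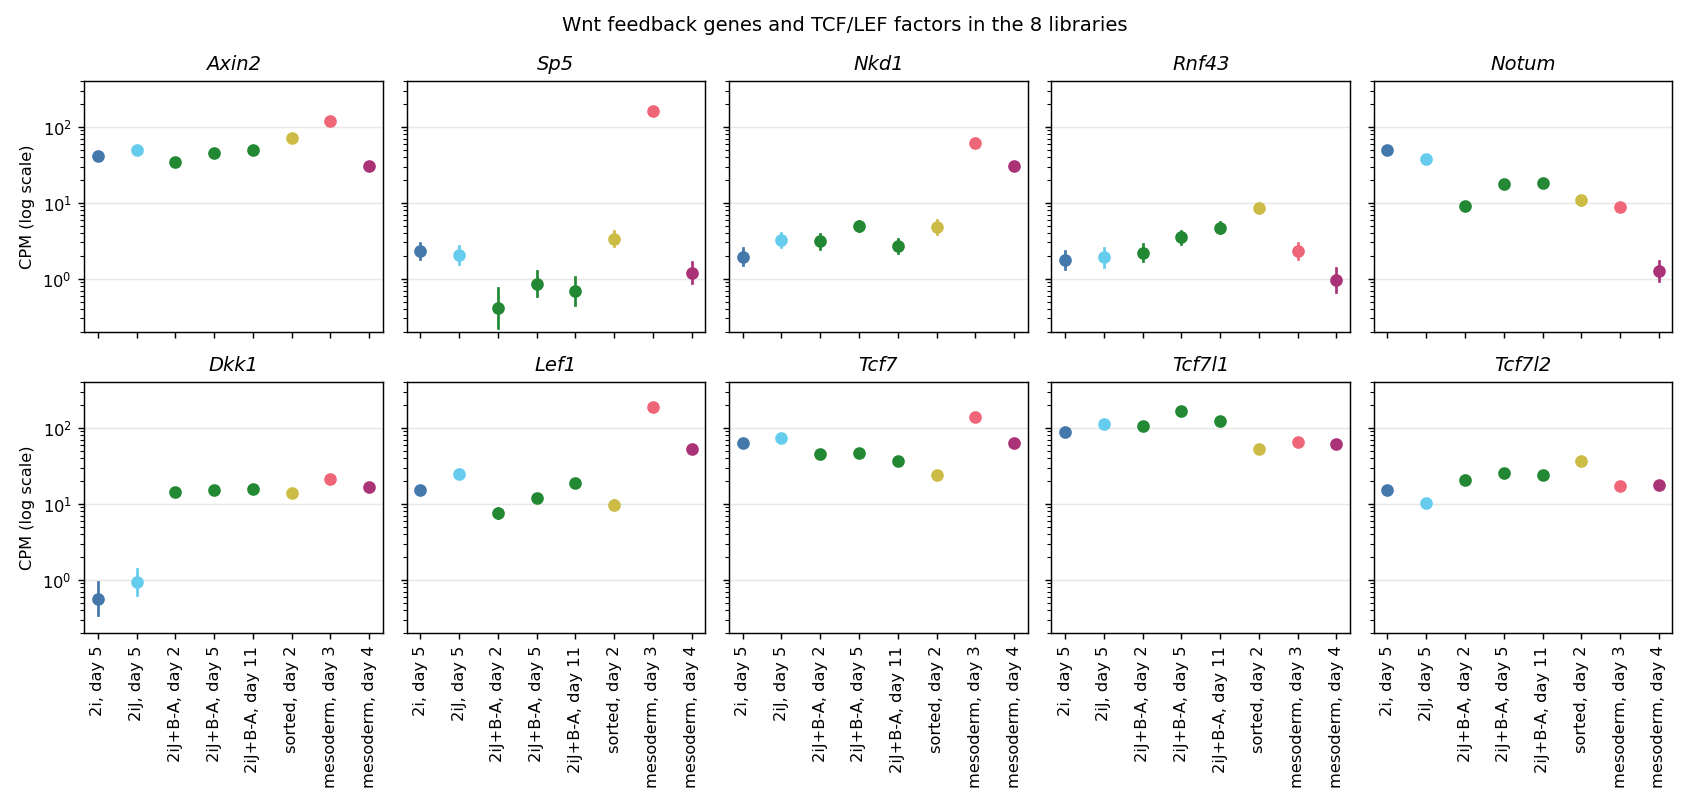
CPM of each of the 10 genes (vertical axis, log scale) in the 8 libraries (horizontal axis), with 1 point per library and the 95% Wilson interval as a line, which is mostly shorter than the point. Sp5 stands at 162 CPM in mesoderm day 3 and at or below 3.38 CPM elsewhere, and Dkk1 is under 1 CPM only in 2i and 2iJ.

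Axin2, a scaffold of the destruction complex and the usual readout of the pathway, was detected in every library within a 3.86-fold span. Its level was 119 CPM in mesoderm day 3, 71.3 CPM in the sorted cells, 49.8 CPM in 2iJ, 49.7 CPM on day 11, 45.6 CPM on day 5 and 33.9 CPM on day 2 of 2iJ+B-A, 41.7 CPM in 2i and 30.9 CPM in mesoderm day 4. The highest and the lowest value thus both came from mesoderm progenitors, a day apart. The 5 unsorted mESC libraries lay between (44.2 ± 6.62 CPM, SD, n = 5), and their order cannot be separated from the spread among the 3 days of 2iJ+B-A.

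Sp5, a zinc finger factor induced by Wnt in the primitive streak, had the widest range of the 10 genes. It reached 162 CPM in mesoderm day 3, but 1.20 CPM (95% interval 0.867 to 1.65) in mesoderm day 4. Among the mESC libraries it stood at 3.38 CPM in the sorted cells, 2.35 CPM in 2i, 2.06 CPM in 2iJ, and 0.408, 0.858 and 0.684 CPM on days 2, 5 and 11 of 2iJ+B-A. All 3 libraries with BMP4 and ALK5 inhibitor II, unsorted, were therefore below 2i and 2iJ.

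Nkd1, an inhibitor that binds Dishevelled, separated mesoderm from mESCs on both days. It was at 61.2 and 30.5 CPM in mesoderm days 3 and 4, and between 1.95 CPM (2i) and 4.99 CPM (2iJ+B-A day 5) in the 6 mESC libraries. The day 4 mesoderm library was still well above all mESC libraries, unlike for Sp5.

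Rnf43, a membrane ubiquitin ligase that removes Frizzled receptors, was scarce in all libraries. Its highest level was 8.63 CPM in the sorted cells, followed by 4.72, 3.50 and 2.20 CPM on days 11, 5 and 2 of 2iJ+B-A. It was at 2.32 CPM in mesoderm day 3, 1.91 CPM in 2iJ, 1.78 CPM in 2i and 0.969 CPM (0.679 to 1.38) in mesoderm day 4. The intervals of 2i, 2iJ, mesoderm day 3 and 2iJ+B-A day 2 overlap. Another annotated gene on the same strand overlaps Rnf43, so pairs that fall in both were left out of its count.

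Notum, a secreted enzyme that removes the lipid from Wnt ligands, ran opposite to Nkd1 between mesoderm and mESCs, but not between the mesoderm days. It was highest in 2i (49.4 CPM) and 2iJ (37.1 CPM), intermediate on days 11 and 5 of 2iJ+B-A (18.5 and 17.7 CPM), and lower in the sorted cells (10.8 CPM), 2iJ+B-A day 2 (9.05 CPM) and mesoderm day 3 (8.68 CPM). Mesoderm day 4 had the lowest level, 1.26 CPM. The counting intervals of 2iJ+B-A day 2 and mesoderm day 3 overlap. Counted without regard to strand, Notum was lower in all 8 libraries, from 0.579 CPM in mesoderm day 4 to 24.1 CPM in 2i, and an antisense gene is annotated across it.

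Dkk1, a secreted antagonist that binds the LRP co-receptors, was under 1 CPM in 2i and 2iJ and at 13.9 CPM or more in all other libraries. These are the mESC conditions without BMP4 and ALK5 inhibitor II, which were always added together. Dkk1 was at 0.568 CPM in 2i (16 counts, 0.350 to 0.923) and at 0.934 CPM in 2iJ (24 counts, 0.628 to 1.39). In 2iJ+B-A it was at 14.1, 15.0 and 15.7 CPM on days 2, 5 and 11, and in the sorted cells at 13.9 CPM. Mesoderm days 3 and 4 had 21.4 and 16.9 CPM. The counting intervals of the 4 libraries from 2iJ+B-A, from 3 days and 2 lines, all overlap.

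Lef1 and Tcf7l1 lay on opposite sides when mesoderm was set against unsorted mESCs. Lef1 was at 191 and 52.0 CPM in mesoderm days 3 and 4, against 24.5 CPM in 2iJ, 15.4 CPM in 2i, 7.54, 12.1 and 18.7 CPM on days 2, 5 and 11 of 2iJ+B-A and 9.74 CPM in the sorted cells. Tcf7l1 was at 64.7 and 61.4 CPM in mesoderm, 53.3 CPM in the sorted cells, 88.3 CPM in 2i, 114 CPM in 2iJ and 105, 168 and 122 CPM on days 2, 5 and 11 of 2iJ+B-A. Both mesoderm values of Tcf7l1 were below the 5 unsorted mESC libraries, and both values of Lef1 were above them.

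Tcf7 was at 139 CPM in mesoderm day 3, but its day 4 value of 62.5 CPM fell within the mESC range. It was at 73.2 CPM in 2iJ, 62.7 CPM in 2i, 44.8, 46.4 and 36.5 CPM on days 2, 5 and 11 of 2iJ+B-A and 24.0 CPM in the sorted cells. Tcf7 too shares exonic sequence with an annotated gene of its own strand (Gm16953). Tcf7l2 was the least variable factor in mesoderm, at 17.0 and 17.7 CPM on days 3 and 4. It was highest in the sorted cells (36.8 CPM) and at 20.4, 25.1 and 24.0 CPM in 2iJ+B-A, against 15.4 CPM in 2i and 10.3 CPM in 2iJ. For Tcf7l2, 5.26% to 18.3% of the strand-assigned counts lay on the opposite strand, against at most 6.41% for the other 9 genes.

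Compared per kilobase of merged exons, Tcf7l1 was the most abundant TCF/LEF gene in all 6 mESC libraries and Tcf7 in both mesoderm libraries. Tcf7l1 made up 50.5% of the summed level of the 4 genes in 2i, 53.1% in 2iJ, 62.0%, 70.8% and 67.1% on days 2, 5 and 11 of 2iJ+B-A and 53.5% in the sorted cells, against 20.9% and 37.8% in mesoderm days 3 and 4. Tcf7 made up 53.5% and 45.8% in mesoderm. Lef1 contributed 23.6% in mesoderm day 3 and 12.3% in day 4, and between 1.72% and 4.40% in the mESC libraries. The summed level was 93.3 CPM per kb in mesoderm day 3, 48.9 in mesoderm day 4, 30.0 in the sorted cells and 50.7 to 71.5 in the other mESC libraries. Because exon length depends on the isoforms, shares were also computed with the longest annotated transcript. The same gene led in each library, but the Lef1 share rose to 39.4% and 22.5% in the mesoderm libraries. The Tcf7 shares there were 41.5% and 39.0%, so that Tcf7 led Lef1 only narrowly in mesoderm day 3.

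**Figure D2:**
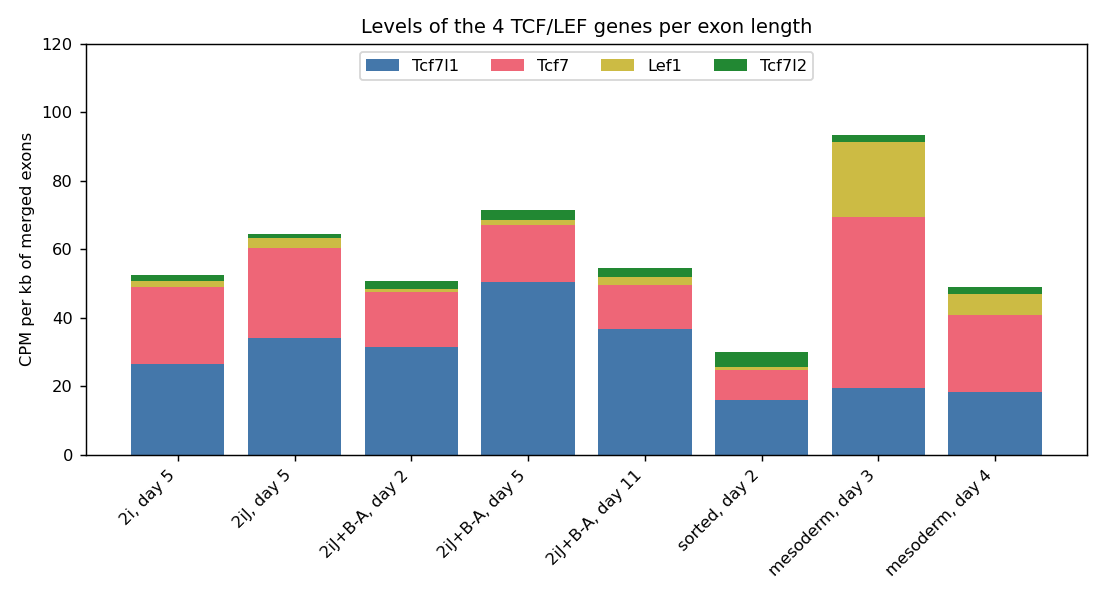
Levels of Tcf7l1, Tcf7, Lef1 and Tcf7l2 in CPM per kb of merged exons (vertical axis, stacked) in the 8 libraries (1 bar each, no replicates within a bar). Tcf7l1 is the largest segment in the 6 mESC bars, up to 70.8%, and Tcf7 in both mesoderm bars, at 53.5% and 45.8%.

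The comparison of mesoderm progenitors with 2iJ+B-A sets a lineage formed with added Wnt3a beside mESCs under constant GSK3 inhibition. The groups also differ in the MEK and JAK inhibitors, in Activin A or ALK5 inhibitor II, in embryoid body culture and in cell type. These differences cannot be told apart. The comparison was fitted over all genes with the quasi-likelihood test of edgeR, with the days of each group as its samples (n = 2 and n = 3). Of the 10 genes, 5 had an adjusted p under 0.05, where 27.0% of all 16961 genes did. Sp5, Nkd1, Lef1 and Tcf7 were higher in mesoderm (11.5% of all genes were) and Tcf7l1 was lower (15.5% of all genes were). Since these days are not repeats of 1 condition, the p-values rest on the spread between libraries of different days. In mesoderm that spread includes the day in IWP-2. With 1 library per day, the spread between cultures cannot be told apart from it.

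Nkd1 was higher by 3.68 ± 0.42 (log2 fold change ± SE, adjusted p = 0.00347, edgeR), and it was the member with the smallest p. Its call held in each of the 5 fits that left out 1 library of either group, with adjusted p between 0.0029 and 0.0197. The log2 fold change of Lef1 was 3.25 ± 0.60 (adjusted p = 0.0123, edgeR), and of these 5 fits it missed the threshold only in the one without 2iJ+B-A day 5 (adjusted p = 0.0511). Nkd1 and Lef1 also stood above all 5 unsorted mESC libraries in both mesoderm libraries, as did Dkk1 by a small margin. This was true of 3 of the 10 genes and of 22.9% of all genes, and 2 of the 10, Notum and Tcf7l1, stood below all 5 in both, as did 25.7% of all genes.

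Sp5 had the largest fitted difference, 6.95 ± 1.70 on the log2 scale (adjusted p = 0.0282, edgeR), and it rested on the day 3 library. Without that library the difference was 0.94 (adjusted p = 0.283), whereas without the day 4 library it was 7.98 (adjusted p = 0.000575). It also missed the threshold when any of the 3 days of 2iJ+B-A was left out (adjusted p between 0.0811 and 0.101). For Tcf7 the log2 fold change was 1.25 ± 0.33 (adjusted p = 0.0353, edgeR), which was 0.63 without mesoderm day 3 (adjusted p = 0.0834) and likewise not called without any 1 day of 2iJ+B-A (adjusted p between 0.0865 and 0.0918). Tcf7l1 was lower by a log2 fold change of -1.05 ± 0.22 (adjusted p = 0.0186, edgeR), with adjusted p of 0.0616 without mesoderm day 4 and 0.0549 without 2iJ+B-A day 5.

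The other 5 genes did not pass the test. Axin2 had a log2 fold change of 0.81 ± 0.51 (adjusted p = 0.281, edgeR), and its sign depended on the day, since it was 1.51 without mesoderm day 4 (adjusted p = 0.0114) and -0.40 without mesoderm day 3 (adjusted p = 0.307). Notum was at -1.59 ± 0.77 (adjusted p = 0.171), and at -3.50 (adjusted p = 0.009) against day 4 alone. The values were -1.07 ± 0.57 for Rnf43, 0.37 ± 0.26 for Dkk1 and -0.40 ± 0.21 for Tcf7l2. Setting mesoderm against the mean of 2i, 2iJ and 2iJ+B-A instead gave 6 calls among the members, with 5437 of all 16961 genes called. Dkk1 then differed by 3.22 (adjusted p = 0.00126) and Notum by -2.65 (adjusted p = 0.0457), while Tcf7 was no longer called (0.76, adjusted p = 0.11).

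**Figure D3:**
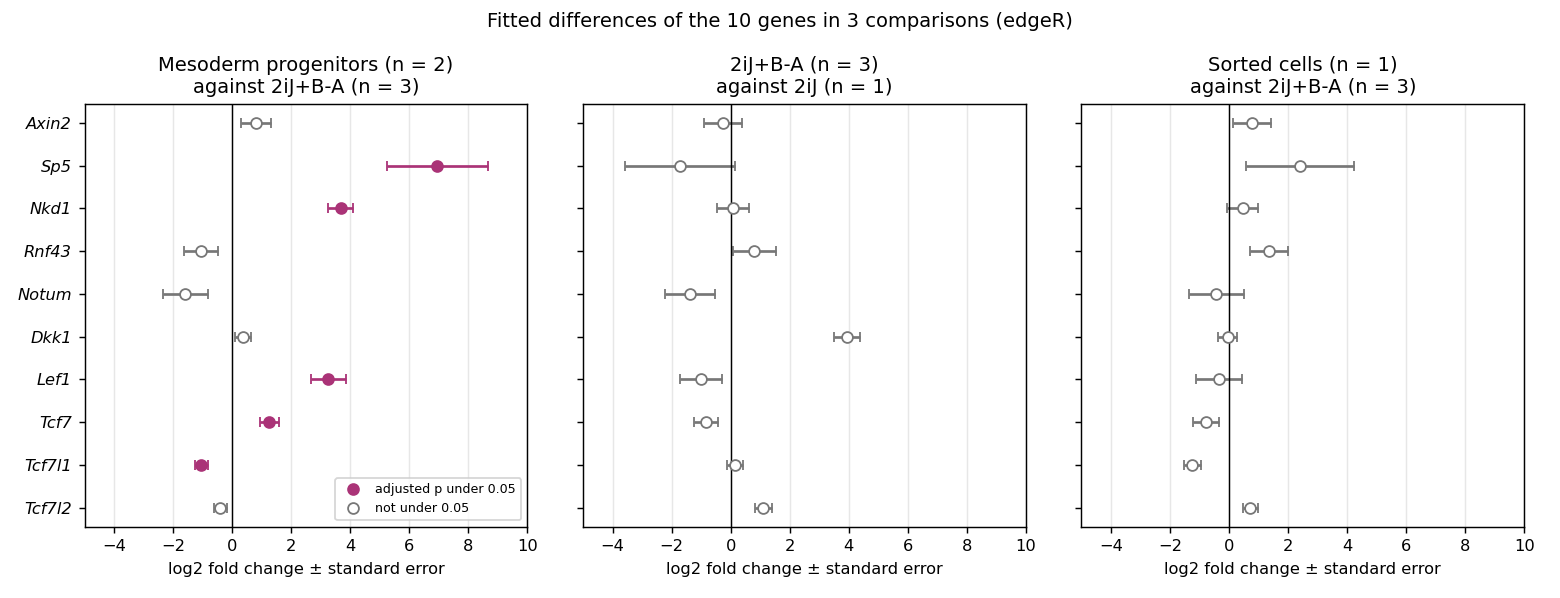
Fitted log2 fold changes (horizontal axis, with standard errors as bars) of the 10 genes (rows) in 3 comparisons. Filled points have an adjusted p under 0.05 in edgeR, which 5 genes reach for mesoderm progenitors against 2iJ+B-A and none reaches in the other panels. The open point of Dkk1 at 3.93 in the middle panel has an adjusted p of 0.244.

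The genes around the members in the pathway were examined in the same fit, from lists set out by role, and each gene named from them had an adjusted p under 0.05 in edgeR. Of 15 receptors and co-receptors, 6 were higher in mesoderm and 1 lower, beside 11.5% and 15.5% of all genes (median log2 fold change 0.81, against -0.03 over all genes). Among those higher, Fzd1 differed most (3.87 ± 0.36), followed by Fzd2 (1.93) and Fzd3 (1.86), while Fzd5 was lower (-2.73 ± 0.25). These 4 receptors had adjusted p of at most 0.0248 in edgeR. Of 8 genes of the R-spondin branch, which sets how many Wnt receptors stay at the membrane, 2 were higher and 2 lower, again beside 11.5% and 15.5% of all genes (median 0.23, which does not depend on the fitted value of Rspo2). Rspo3 was higher by 6.78 ± 0.54 and its receptor Lgr4 by 1.65, whereas Lgr5 was lower (-2.71). Rspo2 was also called lower, with 0 counts in both mesoderm libraries against 0.408, 2.32 and 3.74 CPM on days 2, 5 and 11 of 2iJ+B-A.

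Of the pair of secretion genes, Wls, the carrier of Wnt ligands, was higher (1.82) and Porcn, the acyltransferase that IWP-2 inhibits, was lower (-1.47). The median over the pair was 0.17, and 11.5% and 15.5% of all genes were called higher and lower. Among 14 genes of the destruction complex and beta-catenin, the kinases Csnk1d (0.63) and Gsk3b (0.59) were higher and the ubiquitin ligase adaptor Btrc was lower (-1.15), with a median of 0.13. Among 14 tested inhibitors, of 19 listed, the secreted antagonist Frzb (4.31 ± 0.70) and the membrane protein Apcdd1 (1.13) were higher. Dkkl1, a relative of the Dickkopf genes, was lower (-3.59), and the median was 0.12. In this list and that of the destruction complex, 2 genes were higher and 1 lower, beside 11.5% and 15.5% of all genes. Of 14 nuclear cofactors, 2 were higher and 3 lower (median -0.03), which is close to the 11.5% and 15.5% of all genes. Bcl9, a coactivator of beta-catenin, differed by 1.60, and the Groucho-related genes Aes, Tle2 and Tle4 by -3.96, -2.83 and -1.60. Ctnnbip1, which encodes a protein that binds beta-catenin and is no coactivator, was the other cofactor called higher (0.88).

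The list of 26 other genes known as Wnt targets, of which 24 were tested, held 10 that were higher and 4 that were lower, beside 11.5% and 15.5% of all genes, with a median of 1.16. The largest differences were in T (9.34 ± 1.80), Mixl1 (7.58 ± 1.69) and Fgf8 (7.39 ± 1.07), all genes of the primitive streak, and in the mESC factor Esrrb (-5.75 ± 0.28). All 4 had an adjusted p of at most 0.0219 in edgeR. T, Mixl1 and other genes of this list are also among the markers of mesoderm used to describe the libraries, and Esrrb is among those of pluripotency. This list and the markers are therefore not separate measures. Fzd7 is also counted among the receptors and Lgr5 in the R-spondin branch.

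From day 3 to day 4 of the mesoderm progenitors, 7 of the 10 genes were at least 2-fold lower and none was 2-fold higher. Over all 16549 genes with enough counts in this pair, 14.4% were 2-fold lower and 11.4% higher, and the median log2 ratio was -1.21 for the members and -0.0036 for all genes. There was 1 library per day, and the intervals given with the ratios are exact binomial ones for counting error. Sp5 was 136-fold lower (98.2 to 193), Notum 6.89-fold (4.91 to 9.90), Axin2 3.86-fold (3.59 to 4.15) and Lef1 3.67-fold (3.47 to 3.88). Rnf43 was 2.395-fold lower (1.55 to 3.80), Tcf7 2.23-fold (2.11 to 2.35) and Nkd1 2.00-fold (1.85 to 2.17), and for Rnf43 and Nkd1 the interval reaches below 2. The 5 targets other than Dkk1, and both factors usually seen as activators, were thus at least 2-fold lower on day 4 in unscaled CPM. Nkd1 fell just short of 2-fold with TMM scaling, at a ratio of 0.508 in an edgeR fit. Dkk1 was lower by less.

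A test of this step has to borrow its spread from the 3 days of 2iJ+B-A (2 residual degrees of freedom), and was added after the values were seen. In that edgeR fit 30 of 16961 genes were called (0.177%), and 13.5% had an unadjusted p under 0.05. Sp5 was the 1 member called (log2 fold change -7.05 ± 0.57, adjusted p = 0.0293, edgeR). Axin2 (-1.92 ± 0.33, adjusted p = 0.0887), Notum (-2.75 ± 0.60, adjusted p = 0.141), Tcf7 (-1.13 ± 0.27, adjusted p = 0.161) and Lef1 (-1.85 ± 0.58, adjusted p = 0.256) had an unadjusted p under 0.05 and were not called. Nkd1 and Rnf43 did not reach even that (adjusted p of 0.481 and 0.55). The fit assumes that mesoderm cultures vary like the days of 2iJ+B-A.

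The other 3 genes differed by less than 2-fold. Dkk1 was 1.27-fold lower (1.13 to 1.42), and the day 4 to day 3 ratio was 0.950 for Tcf7l1 (0.892 to 1.01) and 1.04 for Tcf7l2 (0.922 to 1.17). Of the 24 other targets tested, 14 were at least 2-fold lower on day 4 and 2 higher, beside 14.4% and 11.4% of all genes. T stood at 547 CPM before and 6.30 CPM after this day, and Mixl1 at 205 and 2.10 CPM. Of the inhibitors, 6 of 14 were lower and 3 higher. Of the receptors 3 of 15 were lower and 3 higher, again beside 14.4% and 11.4% of all genes. Markers of blood and endothelium summed to 74.4 CPM on day 3 and 378 CPM on day 4, beside the lower pluripotency markers given above. The part of this change in cell types in the lower levels was not tested.

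**Figure D4:**
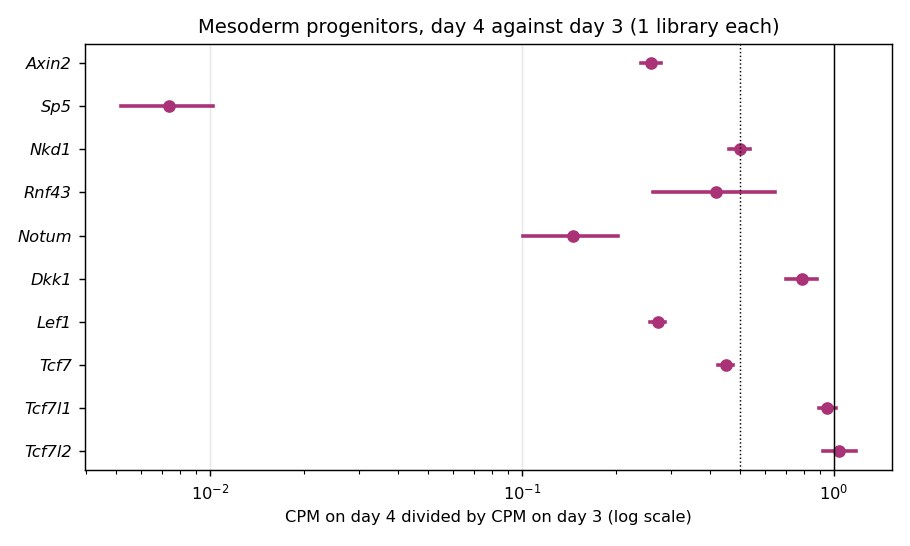
Ratio of CPM on day 4 to CPM on day 3 of the mesoderm progenitors (horizontal axis, log scale) for the 10 genes, with exact binomial intervals for counting error as lines (1 library per day). The solid line marks no change and the dotted line a 2-fold lower level. Sp5 lies farthest left, 136-fold lower, and Tcf7l1 and Tcf7l2 lie on the line of no change.

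Within mESCs, the addition of BMP4 and ALK5 inhibitor II to 2iJ was compared across 3 libraries of 2iJ+B-A and 1 of 2iJ. No gene had an adjusted p under 0.05 in edgeR (0%), with 1290 genes (7.61%) at an unadjusted p under 0.05 and 305 genes (1.80%) called by DESeq2. Dkk1 had the second smallest p of all 16961 genes (rank 2). Its log2 fold change was 3.93 ± 0.44 (unadjusted p = 7.34e-05, adjusted p = 0.244, edgeR). DESeq2 called it (3.92, adjusted p = 1.99e-14), as did edgeR when 2i and 2iJ were pooled as the reference (4.24, adjusted p = 0.0318, one of 150 called genes). With 1 library of 2iJ, each of these p-values takes its spread from other groups. Dkk1 was higher in 3 of 3 libraries, and at the matched day 5 the ratio to 2iJ was 16.1 (10.7 to 25.4).

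Tcf7l2 was the other member with an unadjusted p under 0.05 (log2 fold change 1.10 ± 0.29, adjusted p = 0.47, edgeR), and DESeq2 called it too (1.09, adjusted p = 0.0222). At day 5 its ratio to 2iJ was 2.44 (2.12 to 2.81). Below the 2iJ level at day 5 were Sp5, by 2.403-fold (1.49 to 3.97), Notum, by 2.10-fold (1.89 to 2.34), and Lef1, by 2.03-fold (1.78 to 2.31). Tcf7 was 1.58-fold lower (1.47 to 1.69), and the day 5 ratio to 2iJ was 0.915 (0.848 to 0.987) for Axin2, 1.53 (1.16 to 2.02) for Nkd1, 1.48 (1.41 to 1.55) for Tcf7l1 and 1.83 (1.30 to 2.62) for Rnf43. In this pair 2 of 10 members were at least 2-fold higher (14.3% of all genes) and 3 at least 2-fold lower (7.58% of all genes).

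Set against both 2i and 2iJ, the 3 libraries of 2iJ+B-A lay wholly above for 3 genes (Rnf43, Dkk1 and Tcf7l2), as for 26.5% of all genes, and wholly below for 3 (Sp5, Notum and Tcf7), as for 17.0%. Lef1 overlapped, because its day 11 value of 18.7 CPM passed that of 2i. For the genes below, the fitted log2 fold changes against 2iJ were -1.71 ± 1.87 for Sp5, -1.37 ± 0.85 for Notum and -0.85 ± 0.40 for Tcf7, none of them called. Over the 3 days the fitted values were -0.28 ± 0.64 for Axin2, 0.08 ± 0.53 for Nkd1, 0.14 ± 0.27 for Tcf7l1, 0.80 ± 0.73 for Rnf43 and -1.01 ± 0.71 for Lef1. Markers of other cell types moved with this comparison. Trophectoderm markers summed to 129 CPM in 2iJ and 549 to 1299 CPM in 2iJ+B-A (median log2 fold change 2.03), and primitive endoderm markers to 18.9 CPM and 35.6 to 255 CPM (median 2.62). Their part in the differences of Dkk1, Tcf7l2 and the other members was not tested.

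JAK inhibition on top of 2i, seen in 1 library of each on day 5, moved no member past 2-fold, where 3.46% of all genes were lower and 6.59% higher by that much. The 2iJ to 2i ratio was 1.59 (1.41 to 1.80) for Lef1, 1.67 (1.18 to 2.395) for Nkd1, 1.29 (1.22 to 1.36) for Tcf7l1 and 1.19 (1.10 to 1.29) for Axin2. It was 1.17 (1.09 to 1.25) for Tcf7. For Dkk1 (1.64, 0.837 to 3.31), Rnf43 (1.07, 0.709 to 1.62) and Sp5 (0.88, 0.601 to 1.28) the interval includes 1. Lower in 2iJ were Notum, at 0.751 (0.691 to 0.816), and Tcf7l2, at 0.667 (0.571 to 0.779). These intervals cover counting error only, and the spread between cultures is unknown for this pair.

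Over days 2, 5 and 11 of 2iJ+B-A, a slope on log2(day) was called for no gene (0%), with 1004 genes (5.92%) at an unadjusted p under 0.05 and no member among them. Lef1 had the steepest slope, 0.52 ± 0.35 per doubling of the days (adjusted p = 0.858, edgeR), with a higher level at each later day. It was called (adjusted p = 0.036) in the fit without mesoderm day 4, which called 469 genes in all. Rnf43 (0.44 ± 0.32) and Notum (0.42 ± 0.50) had positive slopes as well, and the slope of Dkk1 was 0.05 ± 0.17. The slopes of Axin2 (0.22 ± 0.35), Sp5 (0.28 ± 1.28), Nkd1 (-0.06 ± 0.31), Tcf7 (-0.13 ± 0.23), Tcf7l1 (0.09 ± 0.15) and Tcf7l2 (0.09 ± 0.13) were also within 1 SE of 0. Primitive endoderm markers summed to 35.6, 71.1 and 255 CPM on days 2, 5 and 11, with a median slope of 1.54, and their part in these slopes was not tested.

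The sorted CDX2-GFP-positive cells were compared with the 3 unsorted libraries of 2iJ+B-A. No member was called, against 5.42% of all genes, and 2 of the 10 had an unadjusted p under 0.05, against 27.0% of all genes. Tcf7l1 was lower, with a log2 fold change of -1.25 ± 0.29 (adjusted p = 0.0608, edgeR), and was called by DESeq2 (-1.24, adjusted p = 0.0025, with 15.9% of all genes called) and when either mesoderm library was left out (adjusted p of 0.0468 and 0.045). Tcf7l2 was at 0.72 ± 0.26 (adjusted p = 0.142). The fitted values of the rest were 2.41 ± 1.82 for Sp5, 1.36 ± 0.65 for Rnf43, 0.78 ± 0.63 for Axin2, 0.46 ± 0.52 for Nkd1, -0.77 ± 0.45 for Tcf7, -0.43 ± 0.94 for Notum, -0.34 ± 0.77 for Lef1 and -0.05 ± 0.33 for Dkk1. At the matched day 2 the sorted cells had 3 members at least 2-fold above the unsorted cells, where 17.7% of all genes were, and none as far below (19.2% of all genes). These were Sp5 with a ratio of 8.30 (4.24 to 18.1), which rests on 10 counts in the unsorted library, Rnf43 with 3.92 (2.87 to 5.43) and Axin2 with 2.10 (1.93 to 2.29). Trophectoderm markers, which include Cdx2 itself, summed to 3852 CPM in the sorted library and 549 CPM in the unsorted one of that day. Fibroblast markers and the share of unmapped pairs were also highest in the sorted library, and their part in these differences, like that of the other cell line, was not tested.

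The genes with the most similar profiles were sought for Axin2, Sp5 and Tcf7l1. Likeness was the root mean square difference of log2 CPM over the 8 libraries after centring each gene, among genes of at least 5 CPM on average. Axin2 was nearest to Ddit4l (0.176), Oxct1 (0.234) and Mapkapk3 (0.241), against an SD of 0.62 of its own log2 values. Like Axin2, each of these was highest in mesoderm day 3, and Ddit4l and Mapkapk3 had their lowest value in mesoderm day 4 (Ddit4l 21.3 and 5.78 CPM). Sp5 was nearest to Apln (0.77), which encodes a peptide ligand, to its relative Sp8 (0.85) and to Igfbp3 (0.95), with an SD of 2.62. Apln was at 103 CPM in mesoderm day 3 and 2.97 CPM in day 4. Tcf7l1 was nearest to Erlin1 (0.159), Hdac6 (0.208) and Fanca (0.209), with an SD of 0.57. These likenesses are descriptions over 8 libraries and no measure of shared control, and those of Axin2 and Sp5 lean on the single day 3 mesoderm library, where both peak.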

How the data were processed

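RNA-seq of 8 libraries was analysed. The authors aligned strand-specific read pairs to NCBIM37 with STAR 2.4.2a after adapter trimming with cutadapt, and deposited raw counts per gene for unstranded counting and for each strand. The annotation release was not given in the sources used here, and symbols and coordinates (1-based) came from GENCODE vM1, which named 37205 of 37620 genes. Depth was 19810855 to 31453888 gene counts. The counts carry no batch adjustment. Reverse-strand counts were used, with 5.03% to 6.47% of strand-assigned counts on the other strand. Pairs that fit several genes are left out by STAR.

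After a filter of 10 counts in 2 or more libraries, 16961 genes entered 1 edgeR 4.0.16 fit (R 4.3.3) with TMM scaling, 5 group means and 3 degrees of freedom left for the spread, using the quasi-likelihood test with Benjamini-Hochberg adjustment at 0.05. The script was tested on simulated data. Standard errors were derived from the log2 fold change and its F statistic. The days of a group served as its samples, and nothing in the labels states separate cultures for repeats, so p-values measure only the spread between these libraries. Ratios of 1 library to another carry exact conditional binomial intervals (95%). An added fit with the mesoderm days as separate groups had 2 degrees of freedom left. CPM values are unscaled shares of gene counts. Likeness used log2 CPM with a prior count of 2.

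All 10 members are named in each comparison that bears on them. From each pathway list up to 4 called genes were named, those of largest absolute log2 fold change whose higher group averaged 1 CPM or more. Ctnnbip1 and Fzd7 were named besides these. The members and lists were chosen with earlier results of these data known. Of 131 list symbols, 129 matched. Alternatives were DESeq2 1.42.0, no filter, unstranded counts, other scaling, other reference groups, only the groups compared and leaving out each library.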

Additional observations from a re-analysis of the deposited data

How the results depend on the processing

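No paired analysis was possible because the labels number no replicates across groups. In fits that left 1 library in an arm, that library was assumed to vary like the other groups. Leaving out 1 library of either group at a time, the mesoderm comparison called 2019 to 4538 genes and 1 to 5 members, and the fold change of Axin2 ran from -0.40 to 1.51. With the mean of 3 mESC conditions as the reference Tcf7l2 turned to 0.14. In the 2iJ+B-A to 2iJ comparison DESeq2 called 305 genes and 2 members, the pooled reference 150 genes and 1 member, and leaving out 1 library moved Nkd1 between -0.21 and 0.23 and Tcf7l1 between -0.0527 and 0.27. The sorted comparison called 919 genes, but 2697 and 1 member by DESeq2, 1390 and 1 member without the filter, 1911 and 2 members with only the groups compared, and 27 when compared at day 2 on the fitted slope, where Notum (0.15), Dkk1 (0.0125) and Lef1 (0.41) turned positive. Without 1 library it called 37 to 2052 genes and 0 to 2 members, and Lef1 ran from -0.60 to 0.0488. Here Sp5 was called with only the groups compared (2.43, adjusted p = 0.0452, edgeR) and without mesoderm day 3 or day 4 (adjusted p of 0.0451 and 0.0172). The slope on log2(day) called 379 to 469 genes and 0 to 1 members without 1 mesoderm library. The cause of these shifts was not tested. Of the 80 member levels, unstranded counting moved 27 beyond their counting interval, among them Notum in all 8 libraries (24.1 CPM in 2i, against 49.4 CPM by strand), and TMM scaling moved 1 (Tcf7l1 on day 5 of 2iJ+B-A, 162 CPM). Depth limits Sp5, Rnf43 and Dkk1 most, where the lowest library held 10, 30 and 16 counts.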
